A study of Rattus norvegicus with 3 samples.

Results

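Dor peaks of rat oligodendrocyte precursor cells (OPC) were set beside those of mature oligodendrocytes (mOL, labelled D3). The question was which sites carried a peak at the start and at the end of differentiation. Every peak on chromosomes 1 to 20 of these stages was taken, 62263 from OPC and 160142 from mOL. That makes 222405 of the 291218 peaks in the 3 lists of the study. Each stage had 1 library, made from primary cultures with a rabbit antibody against Dor by CUT&Tag, in which the antibody directs a transposase to cut the DNA around the bound protein. Per the labels' protocols, precursors were shaken off mixed glial cultures and grown in Sato medium with 10 ng/ml of PDGF-AA and 20 ng/ml of bFGF. Differentiation was in Sato medium with 15 nM of the thyroid hormone T3 and 10 ng/ml of CNTF, and the mOL sample is labelled as treated with T3. How many animals or cultures went into a library is not stated in the sources used here. Genes could not be assigned to positions, because an annotation of the build of the files (rn5) was not used here. The labelled cell types were therefore not checked against marker genes.

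Dor, also called Tp53inp2, is a small protein that moves between the nucleus and the cytoplasm. In the cytoplasm it binds proteins of the LC3 family on forming autophagosomes, and in the nucleus it is known as a coactivator of thyroid hormone receptors. Thyroid hormone promotes the exit of precursors from the cell cycle and the expression of myelin genes, so the nuclear role bears on cells that differentiate under T3. Dor is not known to read a DNA sequence by itself. A CUT&Tag peak is taken to mark DNA close to the protein, whether it is held there directly or through a partner. No control library is stated in the sources used here, so signal that does not depend on Dor was not assessed.

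Each peak is described by its width, by its summit (the base of highest coverage) and by the pileup there, which is the number of sequenced fragments that cover the summit. Strength below is that pileup divided by the genome background, the mean coverage against which the peak caller judged a library. This background stood at 1.47 fragments per base in OPC and at 1.83 in mOL. An estimated 28.1% of the OPC background and 19.4% of the mOL background were mitochondrial fragments. The weakest peaks had 9 fragments in OPC and 10 in mOL, or 6.11 and 5.47 times the background. All comparisons are between 2 libraries, with no replicate, so no test was made, and a difference is not shown to be one between stages. All intervals are 95% intervals. Those on shares and on the ratios of single pairs cover counting error only, and those on pileups take fragments as independent molecules. Those on medians reflect the spread across pairs and take the pairs as independent. None of them covers variation between cultures or libraries.

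Most Dor peaks of either list had no partner in the other. At least 1 base was in common with an mOL peak for 14167 OPC peaks, which is 22.8% of the list (22.4 to 23.1%). The same held for 14186 mOL peaks, or 8.86% (8.72 to 9.0%). The other 48096 OPC peaks and 145956 mOL peaks had no partner. In bases, 6.13 Mb lay under a peak of both libraries, which is 21.6% of the 28.4 Mb covered in OPC and 8.24% of the 74.4 Mb covered in mOL. The lists differ in length, and with both cut to 62263 peaks of lowest q, 17.8% of either was shared. An overlap of at least 50% of both peaks, a stricter rule, left 13.7% of OPC and 5.32% of mOL peaks. With both lists limited to a strength of 20 or more, the share was 75.2% of OPC and 35.5% of mOL peaks, so strong OPC peaks mostly had a partner. Of peaks with a strength under 8, 7.82% in OPC and 2.48% in mOL had a partner of any strength. How much overlap position alone would give was not tested, so a weak pair need not be a common site.

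Shared peaks were wider and stronger than unshared ones. In OPC they had a median width of 505 bases and a median strength of 16.3, from 24 fragments, against 387 bases and 8.14, from 12 fragments, for OPC peaks with no partner. In mOL the medians were 620 bases and 21.9 for shared peaks, from 40 fragments, and 396 bases and 8.20 for the rest, from 15 fragments. Peaks of 1000 bases or more made up 9.63% of shared and 0.399% of unshared OPC peaks. In mOL they were 18.0% of shared and 1.38% of unshared peaks. A local background above that of the genome was recorded at 73.4% of shared and 27.4% of unshared OPC peaks, and at 82.7% and 41.1% of mOL peaks.

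The share was stepped by width. Of OPC peaks, 16.3% (15.7 to 16.8%) of those 400 to 500 bases wide had an mOL partner, 51.7% (50.4 to 53.1%) of those 500 to 700 wide, and 87.7% (85.9 to 89.3%) of those of 1000 bases or more. In mOL the same classes gave 5.22%, 16.7% and 55.9%. Width and strength go together, and the gap between wide and narrow peaks also stood at like strength. Among OPC peaks of 20 to 30 times the background, 61.1% (56.6 to 65.4%) of those under 400 bases and 87.4% (85.8 to 88.8%) of those of 600 bases or more were shared. Among mOL peaks of that strength the values were 22.0% (20.0 to 24.2%) and 48.2% (46.5 to 49.9%). At 12 to 20 times the background they were 23.9% and 56.9% in OPC, and 6.92% and 15.1% in mOL. The mOL list is the denser of the pair, so an OPC peak has more peaks to meet than an mOL peak has.

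**Figure D1:**
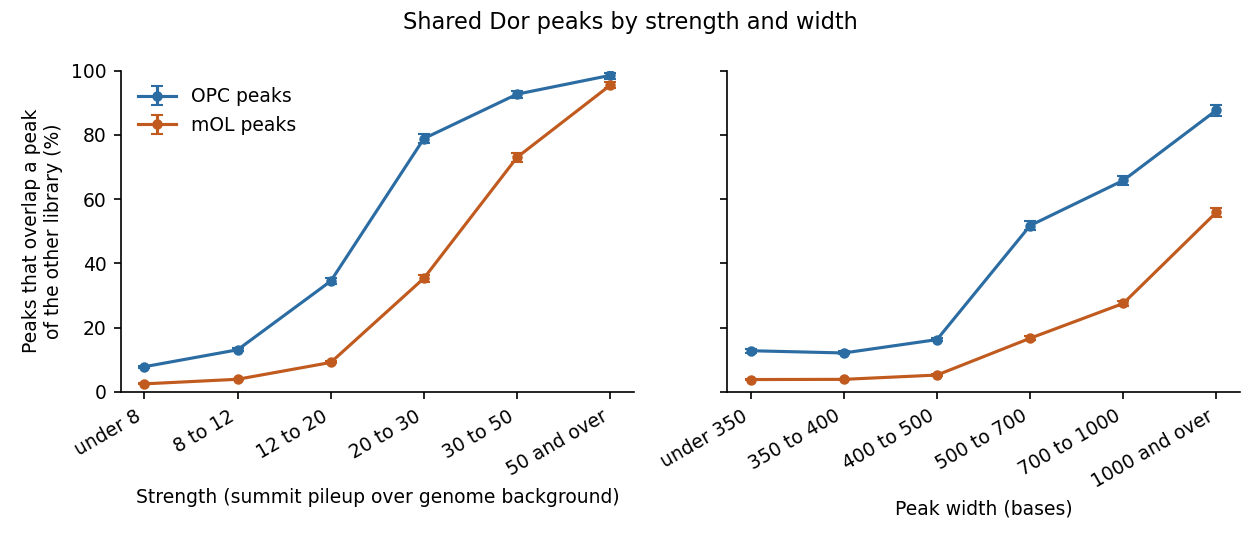
Share of Dor peaks (y axis, percent) that overlap a peak of the other library, in classes of strength (left, summit pileup over genome background) and of width (right, bases), with Clopper-Pearson 95% intervals. Below 12 times the background at most 13.1% of OPC peaks were shared, and at 50 times or more 98.5% of OPC and 95.4% of mOL peaks were.

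Overlaps were nearly all simple. They formed 13817 one-to-one pairs, in which each peak overlapped exactly 1 peak of the other list. In 126 cases 1 OPC peak overlapped 2 mOL peaks, in 105 cases 1 mOL peak overlapped several OPC peaks, and 6 groups held 2 peaks of each list. The most divided site was an mOL peak on chromosome 2 at 215899174 to 215901440, 2267 bases wide with 109 fragments at its summit. It overlapped 3 OPC peaks of 53, 58 and 39 fragments. Another, on chromosome 5 at 131251898 to 131254104, was 2207 bases wide with 74 fragments and also lay over 3 OPC peaks, of 61, 38 and 50 fragments. On chromosome 10 at 57036233 to 57037141 an mOL peak of 241 fragments met an OPC peak of 180 fragments and a smaller one of 31. The reverse was seen on chromosome 7 at 70753550 to 70755018, where an OPC peak of 1469 bases and 97 fragments overlapped mOL peaks of 84 and 122 fragments. On chromosome 6 at 36671098 to 36672514 an OPC peak of 91 fragments overlapped mOL peaks of 59 and 59, and on chromosome 3 at 100373305 to 100375267 one of 89 fragments overlapped mOL peaks of 81 and 64. Not every partner was a piece of the single peak. On chromosome 7 the first mOL peak, 1008 bases from 70752614, lay mostly outside the OPC peak. On chromosome 10 the smaller OPC peak, 395 bases wide and ending at 57037478, lay mostly outside the mOL peak.

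Summits of the strongest pairs lay nearest to each other, although their peaks were the widest. The overlap that defines a pair limits the distance by itself, and how much of it this sets was not tested. The median distance over the 13817 pairs was 162 bases (159 to 166), with the middle 50% of pairs from 70 to 304 bases. The summits were within 50 bases in 2603 pairs (18.8%) and at the same base in 75. They were over 500 bases apart in 1170 pairs (8.47%). With the pair's strength taken as the geometric mean of both libraries, the median distance was 205 bases (195 to 212) at 8 to 12 times the background and 84 bases (78 to 89) at 50 times or more. The latter class had median widths of 870.5 bases in OPC and 978.5 in mOL, against 395 and 420 in the former, and 58.7% of its 1038 pairs had their summits within 100 bases. The class under 8 times the background, at 180 bases, did not follow this order. Its peaks are also the narrowest, with a median width of 383 bases in OPC and 388 in mOL. Requiring 200 bases around each summit to overlap kept 8228 pairs and by its construction lowered the median, to 84 bases.

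Each summit lay inside the partner's peak in 8676 pairs (62.8%), and neither did in 1816 pairs (13.1%). Borders were mostly staggered, in 8889 pairs (64.3%). The mOL peak spanned the whole OPC peak in 3355 pairs (24.3%), and the OPC peak spanned the mOL peak in 1569 (11.4%). Identical borders were found in 4 pairs.

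**Figure D2:**
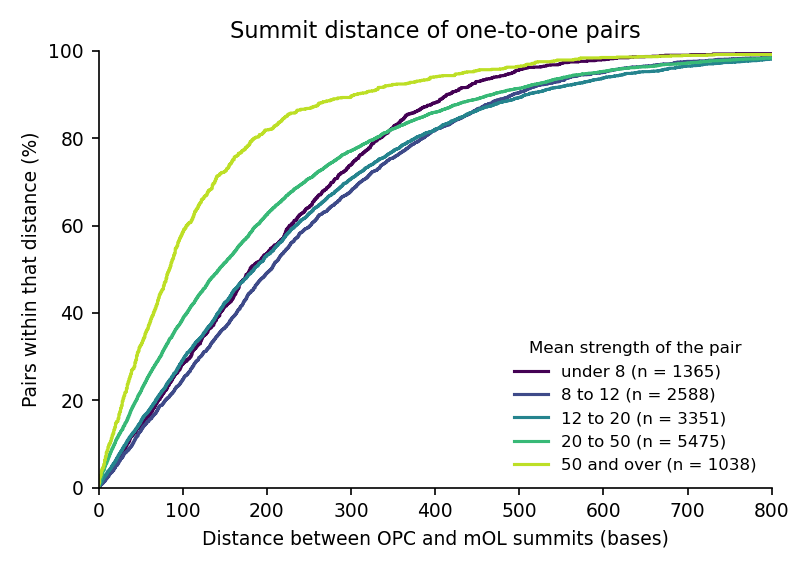
Cumulative share of one-to-one pairs (y axis, percent) against the distance between the OPC and mOL summits (x axis, bases), in 5 classes of the pair's geometric mean strength. The strongest class reached 58.7% within 100 bases, against 24.9% in the class of 8 to 12 times the background.

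The farthest summits among pairs of at least 20 times the background in both libraries lay within wide peaks. On chromosome 16 the OPC peak at 7820857 to 7822692 and the mOL peak at 7820398 to 7821697 had their summits 1662 bases apart, at 7822494 in OPC and 7820832 in mOL. The strengths were 28.5 in OPC and 34.4 in mOL, from 42 and 63 fragments, for a strength ratio of 1.21 (0.805 to 1.83). On chromosome 19 at 48905877 to 48907553 the distance was 1317 bases, with 42 and 60 fragments. On chromosome 3 at 2572391 to 2574280 it was 1315 bases, with 60 and 69 fragments. At these 3 sites the highest point stood at another place in each library although the intervals of the strength ratio included 1. The error in placing a summit within such wide peaks was not assessed.

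Paired peaks were somewhat wider in mOL. The median width was 502 bases in OPC and 621 in mOL, and the median ratio within pairs was 1.10 (1.10 to 1.11), or 0.14 on the log2 scale. The mOL peak was the wider in 8389 pairs (60.7%). It was at least 2 times as wide in 1567 pairs (11.3%), and the OPC peak was in 528 (3.82%). Over all pairs the width ratio followed the strength ratio. Where OPC was 2 times the stronger or more, the median width ratio was 0.889 (0.849 to 0.912) and 35.4% of mOL peaks were the wider. Its interval included 1 at strength ratios from 0.5 to 0.8 (0.984 to 1.02), where 50.1% were the wider. It was 1.07 (1.05 to 1.08) from 0.8 to 1.25, and 1.29 (1.26 to 1.32) at 2 or more. Among pairs of at least 20 times the background in both libraries the classes lay closer, with 1.02 (0.878 to 1.12) for the 58 pairs 2 times stronger in OPC, 1.14 (1.11 to 1.17) from 0.8 to 1.25 and 1.18 (1.14 to 1.24) at 2 or more. Across all pairs, width and strength ratios had a Spearman coefficient of 0.22, and among the 4736 pairs of at least 20 times the background it was 0.08. Among the 626 pairs of at least 50 times in both libraries it was -0.05, so the relation was not seen there. Requiring strength in both libraries leaves out unequal pairs by construction, so strength ratios vary less in these sets. The middle 50% of strength ratios ran from 0.884 to 1.75 in all pairs and from 0.944 to 1.40 in these 626. How much this lowers the coefficient was not tested. These are descriptions across sites of the same libraries. The weakest peaks stood at 6.11 times the background in OPC and 5.47 in mOL. The part of this unlike limit, and of depth, in the widths was not tested.

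**Figure D3:**
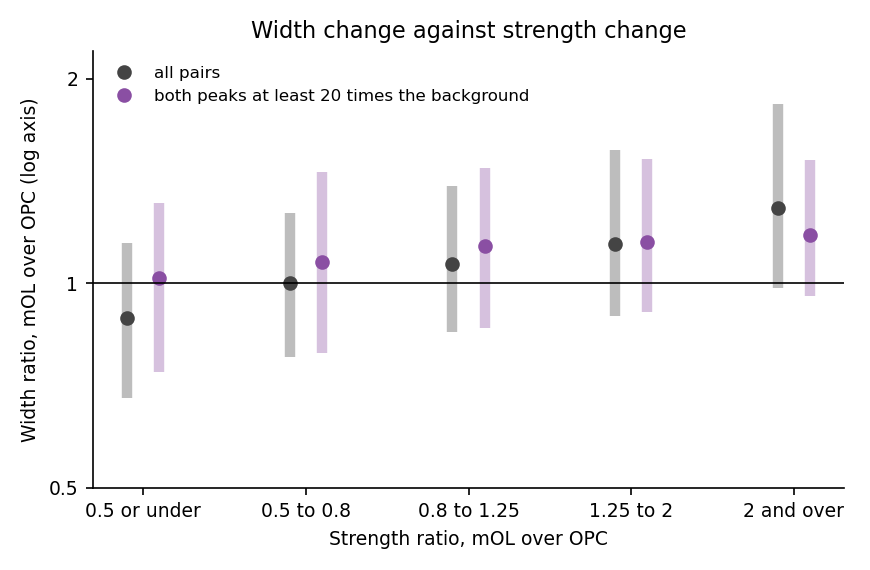
Width ratio of one-to-one pairs (y axis, mOL over OPC, log scale) in classes of the strength ratio (x axis), for all pairs (grey) and pairs with both peaks at least 20 times the background (purple). Points are medians and bars span the middle 50% of pairs, which reach across 1 in every class.

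Some pairs differed in width by several times, with strength ratios between 0.645 and 1.49. On chromosome 1 an OPC peak of 356 bases at 102216072 to 102216427 lay inside an mOL peak of 1937 bases at 102215830 to 102217766. Their pileups were 52 and 50 fragments, and the strength ratio was 0.775 (0.515 to 1.16). On chromosome 8 at 127873305 to 127873631 the OPC peak had 327 bases and 32 fragments, and the mOL peak 1667 bases and 59 fragments. On chromosome 13 at 100906183 to 100906506 the widths were 324 and 1643 bases, with 46 and 83 fragments and summits 13 bases apart. The interval of its strength ratio, 1.45 (1.002 to 2.13), lay just above 1. These 3 mOL peaks extended well beyond a focal OPC peak. The reverse was found on chromosome 4, where the OPC peak at 136516682 to 136518322 had 1641 bases and 47 fragments. The mOL peak there had 303 bases and 63 fragments. On chromosome 11 at 71460446 to 71461971 an OPC peak of 1526 bases held an mOL peak of 368 bases, with 33 and 42 fragments. On chromosome 1 at 112865184 to 112866775 the widths were 1592 and 384 bases, with 50 fragments in OPC and 40 in mOL. There the interval of the strength ratio, 0.645 (0.414 to 0.997), lay just below 1.

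In strength, paired peaks were higher in mOL by the genome background. Each strength ratio compares the summits of both peaks, which can lie at different bases. The median strength was 16.3 in OPC and 21.3 in mOL, from 24 and 39 fragments. The median ratio within pairs was 1.24 (1.23 to 1.25), or 0.31 on the log2 scale, and the mOL peak was the stronger in 9142 pairs (66.2%). At least 2 times more strength was found in mOL in 2346 pairs (17.0% of the pairs) and in OPC in 486 (3.52%). The counting interval of the ratio lay above 1 in 3917 pairs (28.3%) and below 1 in 831 (6.01%). It lay wholly between 0.5 and 2 in 2907 pairs, and in 498 of the 626 pairs of at least 50 times the background in both libraries. Requiring both peaks to be that strong leaves out unequal pairs by construction. Of the 1823 pairs chosen for at least 50 times in mOL, 667 (36.6%) had such an interval. Of the 831 chosen by OPC strength, 578 (69.6%) did. The split depended on the scale: 82.8% of the pairs 2 times apart were higher in mOL, against 67.3% with the estimated mitochondrial fragments taken out of the backgrounds, 61.2% with the deposited fold over the local background, and 49.9% with the median pair set to 1. The median log2 ratio was 0.14 without mitochondrial fragments, a shift of -0.17, and 0.047 by the deposited fold.

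The ratio also moved with the list that chose the pairs. For pairs of at least 50 times the background in OPC the median ratio was 1.02 (0.977 to 1.05, 831 pairs), and for those of at least 50 times in mOL it was 1.68 (1.65 to 1.73, 1823 pairs). With the geometric mean of both strengths as the measure, it was 0.940 under 8 times the background, 1.14 at 8 to 12 times, 1.29 at 12 to 20 times, 1.37 at 20 to 50 times and 1.29 at 50 times or more. Near the weakest callable pileup both libraries had to pass their own limit to form a pair, so a change of 2 times could hardly be recorded there: among 1365 pairs under 8 times the background 0 were 2 times stronger in mOL and 10 in OPC.

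**Figure D4:**
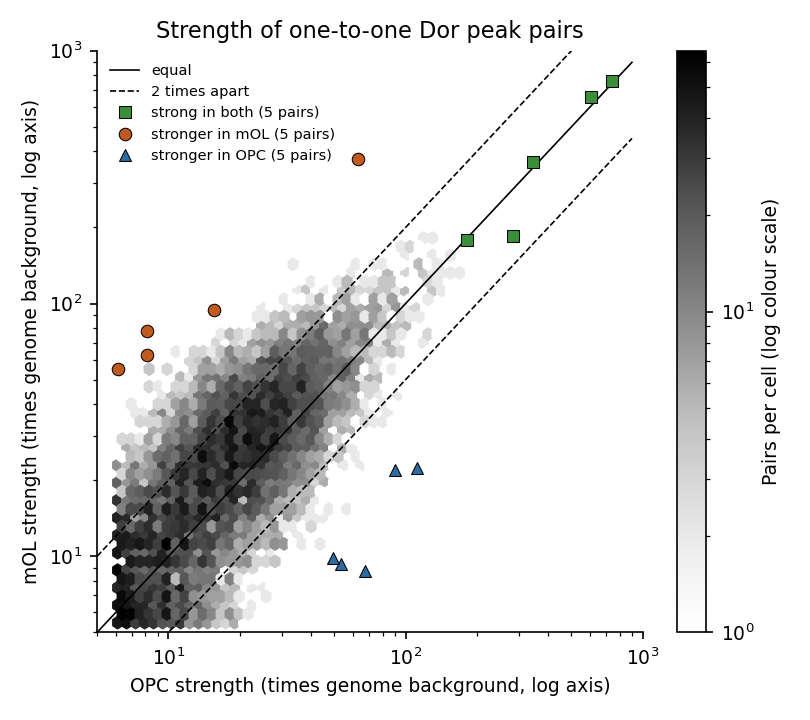
OPC strength (x axis) against mOL strength (y axis) of the 13817 one-to-one pairs, both as times the genome background on log axes, with shading for the number of pairs per cell. Squares mark the 5 pairs strongest in both, circles and triangles the 5 with the clearest excess in mOL or in OPC, which lie outside the dashed lines of 2 times.

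At 4 of the 5 strongest common sites the strength ratio lay near 1 on the scale of the genome background. The 5 were chosen by the smaller strength of each pair, a rule that favours like strengths. On chromosome 4 the OPC peak at 142116059 to 142116756 had 1098 fragments and the mOL peak at 142116046 to 142116781 had 1394, which were 744.9 and 762.0 times the background, a ratio of 1.02 (0.944 to 1.11). On chromosome 19 at 67047833 to 67048556 the pileups were 894 and 1197, the ratio 1.08 (0.988 to 1.18), and the summits 5 bases apart. On chromosome 1 at 151578607 to 151579889 they were 508 and 667, with a ratio of 1.06 (0.941 to 1.19). On chromosome 13 at 114643465 to 114644618 they were 268 and 325, with a ratio of 0.977 (0.829 to 1.15). The intervals of these 4 pairs included 1 on this scale. The exception lay on chromosome 7 at 123018351 to 123019529, with 420 fragments in OPC and 338 in mOL. Its ratio was 0.648 (0.560 to 0.75), and its mOL peak was narrower, 753 bases against 1179. With the median pair set to 1 the 5 ratios came to 0.523 to 0.870, all on the OPC side with intervals whose upper bounds were 0.605 to 0.960, and without mitochondrial fragments to 0.578 to 0.962.

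The clearest excess in mOL, by the lower bound of the interval, was on chromosome 3 at 66394572 to 66395271. The OPC peak there had 12 fragments and the mOL peak 142, or 8.14 and 77.6 times the background, a ratio of 9.53 (5.29 to 18.9). The widths, 700 and 641 bases, were alike, and the summits lay 149 bases apart. On chromosome 14 at 46822541 to 46823109 a peak already strong in OPC, with 93 fragments, had 682 in mOL, a ratio of 5.91 (4.75 to 7.42). Its width was 569 bases in OPC and 604 in mOL, and the summits were 31 bases apart, so the height differed at nearly the same summit and width. On chromosome 7 at 35569188 to 35569640 the weakest callable OPC peak, of 9 fragments, met an mOL peak of 101, a ratio of 9.04 (4.58 to 20.3). The summits of this pair lay 369 bases apart, and that of mOL was outside the OPC peak. On chromosome 4 at 235611166 to 235611557 the pileups were 12 and 114, the ratio 7.65 (4.22 to 15.2), and the widths were 392 and 974 bases. The summits there lay 129 bases apart. On chromosome 19 at 66131586 to 66132001 the pileups were 23 and 172, the ratio 6.03 (3.89 to 9.76), and the widths were 416 and 1497 bases. Its summits lay 54 bases apart. These 5 stayed 4.77 to 7.69 times higher in mOL with the median pair set to 1. By the deposited fold over the local background they were 1.07 to 3.16 times higher. The lowest of these was the chromosome 14 site, where the local background was 3.42 fragments in OPC and 29.2 in mOL.

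The clearest excess in OPC, by the upper bound, was on chromosome 15, where the OPC peak at 19713974 to 19714871 had 99 fragments and the mOL peak at 19714492 to 19714902 had 16. The strengths were 67.2 and 8.75, a ratio of 0.130 (0.0717 to 0.222), and the widths were 898 and 411 bases. The summits lay 58 bases apart. On chromosome 2 the OPC peaks at 206990744 to 206991824 and at 207000260 to 207000941 both stood above their mOL partners. The first had 164 fragments in OPC and 41 in mOL, a ratio of 0.201 (0.139 to 0.285), and the second 73 and 18, a ratio of 0.199 (0.112 to 0.336). Summits lay 694 bases apart at the first and 118 at the second. On chromosome 7 at 74427236 to 74427796 the pileups were 79 and 17, a ratio of 0.173 (0.0962 to 0.295). The summits of that pair lay 412 bases apart, and that of mOL was outside the OPC peak. On chromosome 8 at 69669805 to 69671212 the pileups were 133 and 40, a ratio of 0.242 (0.166 to 0.347), with summits 107 bases apart. Peaks there were wide at both stages, of 1408 and 1132 bases. All 5 were lower in mOL by the other scales as well, with ratios of 0.105 to 0.195 when centred and of 0.296 to 0.562 for the deposited fold.

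With the named pair left out, each of these 10 sites had more mOL than OPC peaks within 25 kb, and the mOL list is the longer throughout. Near the chromosome 3 site there were 0 other OPC peaks and 3 other mOL peaks, near the chromosome 14 site 0 and 1, and near the chromosome 19 site 2 and 9. Of the sites lower in mOL, those on chromosomes 15 and 7 had 0 other OPC peaks and 3 other mOL peaks each, the strongest at 7.65 and 9.29 times the background. The chromosome 8 site had 3 and 6, at 12.2 to 15.6 times in OPC and 7.11 to 16.4 times in mOL. Most neighbours were seen at the first site on chromosome 2, with 6 in OPC of 16.3 to 49.5 times and 7 in mOL of 9.84 to 35.5 times, and at the second, with 5 and 8. These last 2 sites lie within 25 kb of each other and share neighbours.

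A small number of very strong peaks had no partner. In OPC they were 13 of 861 peaks that reached 50 times the background, on 9 chromosomes. In mOL they were 89 of 1947 such peaks, on 20 chromosomes. At equal strength the 13 would have had 91.8 to 169 fragments in mOL and the 89 from 74.1 to 247 in OPC. The weakest pileups called anywhere in those lists were 10 and 9. A higher local background raises the pileup needed for a call. That of the library without the peak is not known at these sites.

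The strongest mOL peak without an OPC partner lay on chromosome 14 at 46826657 to 46827107, with 307 fragments or 168 times the background. It stood 3547 bases from the chromosome 14 pair with the ratio of 5.91, and within 25 kb of that pair OPC had no other peak and mOL no other than this one. On chromosome 10 at 109116223 to 109117421 an mOL peak of 183 fragments and 1199 bases ended 292 bases before an OPC peak of 55 fragments. On chromosome 6 at 38256560 to 38257341 one of 155 fragments lay 14862 bases from the nearest OPC peak, of 30 fragments. On chromosome 7 at 126250272 to 126251222 one of 147 fragments lay 926 bases from an OPC peak of 62, and on chromosome 1 at 83414785 to 83415280 one of 146 lay 2656 bases from an OPC peak of 56. Of these 5, the one on chromosome 6 lay farthest from an OPC peak.

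The strongest OPC peak without an mOL partner lay on chromosome 10 at 86486699 to 86487199, with 136 fragments or 92.3 times the background. An mOL peak of 47 fragments ended 63 bases away, at 86486635, so this site missed the rule of overlap by little. On chromosome 7 at 26820018 to 26820907 an OPC peak of 117 fragments lay 677 bases from an mOL peak of 59. On chromosome 11 at 74453008 to 74454495 one of 108 fragments lay 421 bases from an mOL peak of 58, and on chromosome 12 at 19337039 to 19337526 one of 88 lay 1535 bases from an mOL peak of 14. The exception was on chromosome 18 at 72145201 to 72145626, where an OPC peak of 90 fragments, or 61.1 times the background, stood 19813 bases from the nearest mOL peak, which had 12 fragments.

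Unshared OPC peaks generally lay nearer to an mOL peak than the reverse, and the mOL list is the denser. The median gap was 4035 bases for the 48096 unshared OPC peaks and 11662 for the 145956 unshared mOL peaks. Among those of at least 20 times the background it was 1800 bases for 910 OPC peaks and 6137 for 6190 mOL peaks. A gap of at most 500 bases was found for 22.2% of these strong OPC peaks and 8.27% of the strong mOL peaks. A gap above 10000 bases remained for 3 of the 13 OPC peaks and 28 of the 89 mOL peaks that reached 50 times the background. At the limit of the rule itself, 705 OPC peaks overlapped a partner by 1 to 50 bases, with a median width of 393 bases and a strength of 9.50. Just outside, 535 OPC peaks stood less than 50 bases from an mOL peak, with a median width of 389 bases and the same strength.

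**Figure D5:**
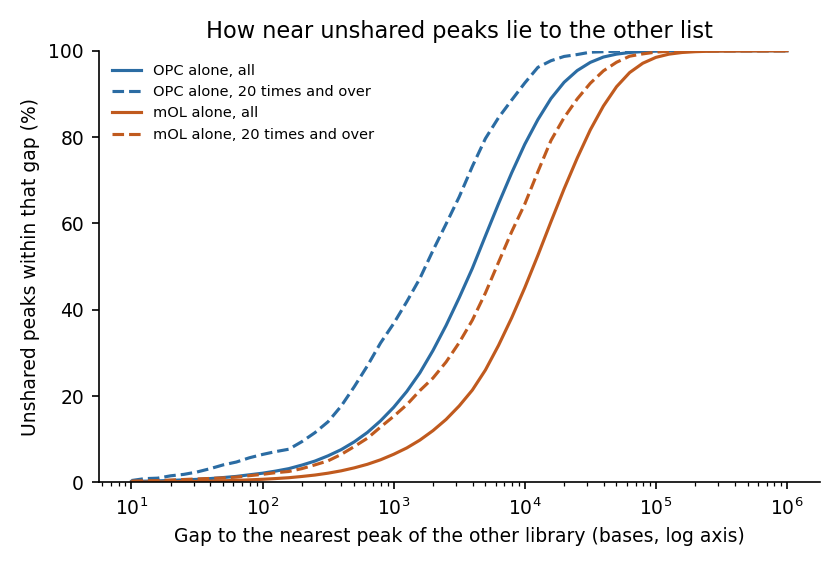
Cumulative share of peaks with no partner (y axis, percent) against the gap to the nearest peak of the other library (x axis, bases, log scale), for OPC (blue) and mOL (orange). Dashed lines are the 910 OPC and 6190 mOL peaks of at least 20 times the background, which lay nearer than the whole lists in both libraries.

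Chromosomes differed in how much was shared. Chromosomes 10 and 12 had the highest shares, 30.7% (29.1 to 32.2%) and 30.6% (28.2 to 33.1%) of OPC peaks and 11.8% and 11.3% of mOL peaks. The lowest were chromosomes 2 and 15 in OPC, at 18.7% (17.7 to 19.7%) and 19.4% (17.8 to 21.1%), and chromosomes 13 and 15 in mOL, at 7.21% and 7.45%. Chromosome 6 also stood at 7.45% in mOL. Strong peaks were unevenly spread in the same way, at 17.4% of OPC peaks on chromosome 12 and 7.30% on chromosome 2 for at least 20 times the background. The median strength ratio of pairs ran from 1.18 on chromosomes 7 and 14 to 1.34 on chromosome 13, and the median width ratio from 1.06 on chromosome 16 to 1.14 on chromosomes 7 and 13.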

How the data were processed

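The OPC and mOL lists hold 1 row per peak. MACS2 2.2.7.1, Bowtie2 2.4.4, deepTools 3.5.1 and build rn5 appear in the submitters' processing notes, with no roles. The layout is narrowPeak. Each peak name includes "pool"; the pooled material, any control library and how duplicates were handled are not stated in the sources used here. The deposited fold is a linear ratio of summit pileup to local background. The deposited p and q are −log10 values, and the deposited score is the −log10 p times 10 without decimals in 99.992% of OPC and 99.989% of mOL rows.

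Pileup and background were solved from fold and p, with a pseudocount of 1 in the fold and a Poisson tail; all pileups were whole within 0.002 fragments. The solver, pairing and intervals were tested on simulated data. The 64732 OPC and 166805 mOL rows were reduced to chromosomes 1 to 20. No rows overlapped within a list. Promoter and gene lists were planned and left out, for want of rn5 gene positions here. Positions count from 1. The mitochondrial share was estimated from the median local background of the 7 OPC and 5 mOL mitochondrial rows, with the summed ends of the last peaks as genome length. Shares carry Clopper-Pearson intervals, medians order-statistic intervals, and ratios exact Poisson intervals.

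Regions named are the 5 pairs strongest in both libraries, the 5 with the highest lower and the 5 with the lowest upper bound of the ratio, the 3 most changed in width each way and the 3 with the farthest summits at 20 times the background or more, the 5 strongest unshared peaks and the 3 with most partners per list. Members and rules were chosen with earlier results of these data known. Python 3.11.15, numpy 2.4.6, scipy 1.17.1, pandas 2.3.3 and networkx were used.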

Additional observations from a re-analysis of the deposited data

How the results depend on the processing

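The median width ratio and the median strength ratio kept their direction under the alternatives given here, except that centring sets the strength ratio to 0 by construction. With a −log10 q of at least 5, 27.7% of OPC and 9.78% of mOL peaks were shared, the median summit distance was 156 bases and the log2 width ratio 0.16. With a fold of at least 5 these were 27.2%, 11.1%, 148.5 bases and 0.18, with a log2 strength ratio of 0.37 and 212 pairs 2 times stronger in OPC. With peaks of at least 20 times the background they were 75.2%, 35.5%, 119 bases and 0.19, and 550 pairs were 2 times stronger in mOL and 58 in OPC, from fewer peaks. Lists of equal length gave 17.8% for OPC and 17.8% for mOL, and, in values added after seeing the data, 154 bases, 0.20 for width, 0.49 for strength and 2338 pairs 2 times stronger in mOL and 180 in OPC. An overlap of 50% of both peaks gave 13.7%, 5.32%, 122 bases and 0.11, with 1403 and 275 pairs. Windows of 200 bases at summits gave 13.2%, 5.14% and 84 bases, with 1438 and 265 pairs. On other scales the log2 strength ratio and the numbers of pairs 2 times stronger in mOL and in OPC were 0, 1131 and 1137 when centred on the median pair, 0.047, 597 and 378 by the deposited fold, and 0.14, 1601 and 779 without mitochondrial fragments. Counting many-to-one overlaps moved none of the 5 values it bears on beyond their intervals or by over 1.5 times. Where no reason is given, the cause was not tested. No paired analysis was possible because OPC and mOL have 1 library each. Depth limits weak peaks most: a pair of 9 OPC and 10 mOL fragments cannot show a ratio of 2.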

Other observations

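Strong Dor peaks without a partner tended to stand beside other peaks of their own library. Among OPC peaks of 30 to 50 times the background, 46.0% of the 163 unshared ones (38.2 to 54.0%) had another OPC peak within 5000 bases, against 18.9% of the 2053 shared ones (17.2 to 20.6%). At 20 to 30 times the values were 36.9% (33.4 to 40.5%) and 25.1% (23.5 to 26.8%). In mOL, 57.7% of the 1129 unshared peaks of 30 to 50 times (54.7 to 60.6%) and 40.8% of the 3052 shared ones (39.0 to 42.6%) had such a neighbour. At 20 to 30 times in mOL they were 56.3% and 49.4%. At 12 to 20 times the background the classes were close, 24.2% and 25.2% in OPC and 54.0% and 55.9% in mOL. From this class to that of 30 to 50 times, the mOL share thus fell mainly among shared peaks and rose little among unshared ones. Shared peaks were also the wider ones, with medians of 758 against 498 bases in OPC and 823.5 against 600 in mOL at 30 to 50 times. The part of width in this difference was not tested.

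Neighbouring pairs had little in common in their strength ratios. For 366 successive one-to-one pairs less than 5000 bases apart, the log2 strength ratios had a Spearman coefficient of 0.19, and 54.1% lay on the same side of the median. At 5000 to 20000 bases the coefficient was 0.06 (2243 successive pairs), and at 20000 to 100000 bases 0.05 (5592). These measures were chosen after the values of the named pairs had been seen, and they describe sites within the same libraries.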
